A study of Mus musculus with 12 samples.

Results

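The genes described here encode the protein side of the U3 small nucleolar ribonucleoprotein (U3 snoRNP) and of the small-subunit (SSU) processome, the particle in which the 18S ribosomal RNA is cut out of its precursor. There were 33 such genes among the 40840 genes listed for each library. They were listed by name for their known place in the particle, with earlier results of these data known. The question was whether these proteins' transcripts followed the U3 RNA itself between diets and between libraries. The study sequenced total RNA from the immune cell fraction of the liver, which the labels call hepatic macrophages, to ask how caspase-11 acts in fatty liver disease. Each of the 4 groups held 3 male mice, which were 8 to 10 weeks old when a diet of 12 weeks began. WT-NCD and WT-HFD were wildtype C57BL/6 mice on normal chow diet (NCD) and high-fat diet (HFD). Casp11-/- NCD and Casp11-/- HFD were B6.129S4(D2)-Casp4tm1Yuan/J mice on the same diets. The Casp4 allele is carried in the germline, so it affects every cell type, and the RNA came from the whole cell fraction of a density gradient.

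The U3 RNA is a box C/D small nucleolar RNA that pairs with the precursor of ribosomal RNA instead of guiding its methylation. Its core proteins are fibrillarin (Fbl), Nop56, Nop58 and Snu13, which all box C/D RNAs share, and Rrp9, which binds U3 only. The SSU processome adds the UTP-A and UTP-B complexes, the Mpp10 complex and a set of GTPases, helicases and other enzymes around the growing precursor. Cells that grow or divide make many ribosomes and are known for high levels of these factors.

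The U3 RNA is shown first because every comparison of the members with it rests on these molecules. The mouse genome of GRCm38 holds 1 Rnu3a gene at chr10:40258467-40258680 and 4 Rnu3b genes on chromosome 11, all on the plus strand in GENCODE vM21. Rnu3b1 lies at chr11:87443237-87443452, Rnu3b3 at chr11:87448627-87448842, Rnu3b4 at chr11:87462286-87462500 and Rnu3b2 at chr11:87471368-87471582. The files list them as Snord3a and Snord3b1 to Snord3b4. In the sequences the capitals mark box C (TGATGA) and box D (CTGA), conserved boxes to which the core proteins bind.
Rnu3a: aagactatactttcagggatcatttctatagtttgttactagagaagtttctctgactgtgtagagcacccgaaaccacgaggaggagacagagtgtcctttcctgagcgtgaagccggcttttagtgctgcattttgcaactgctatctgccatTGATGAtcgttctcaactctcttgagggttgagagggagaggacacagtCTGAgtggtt
Rnu3b4: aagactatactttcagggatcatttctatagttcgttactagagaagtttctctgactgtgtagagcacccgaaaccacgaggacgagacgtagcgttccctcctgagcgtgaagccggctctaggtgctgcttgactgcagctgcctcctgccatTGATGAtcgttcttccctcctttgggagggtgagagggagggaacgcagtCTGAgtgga
Rnu3a is 214 bases long and Rnu3b4 215 bases. The forms shared 184 of 216 aligned positions (85.2%), and their first 33 bases, part of the domain that pairs with the ribosomal precursor, were identical. The 4 Rnu3b genes had the same 215 bases, so reads cannot be assigned to 1 of them. U3 below is the sum over Snord3a and the 4 Snord3b genes, and values under single Snord3b names are only those that the files list. In 11 libraries Snord3b1 and Snord3b2 were listed at the lowest value of the files, and nearly all of the U3 signal stood under Snord3b3 and Snord3b4.

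The depth behind the values differed widely between libraries. The files give transcript levels scaled to a fixed total per library (TPM) with low values raised to 1.01 TPM in every library. Whole reads could nevertheless be recovered from 11 libraries, because 99.9% of 100328 values of up to 300 reads were whole multiples within 0.05 reads. These libraries held 1782518 to 10701278 recovered reads on HFD and 6275112 to 11822186 on NCD. The median member above the lowest value had 27 to 183 reads per library on HFD and 106 to 266 on NCD. The part of depth in the diet differences was not tested. WT-NCD replicate 3 is treated here and below as holding 0 reads, with values set by gene length alone. Gene lengths were read from its values on that basis, so its 0 recovered reads follow from the method. Of its 2734 small RNA genes, whose lengths were known beforehand, 99.1% carried the value that 0 reads would give. The lengths read from it also gave whole reads in the other 11 libraries, for members in 355 of 355 values above the lowest value. The counts of members called are given for the 12 libraries and for the 11 that hold reads, whereas values of single members, roles and marker genes are those of the 11 libraries. The members together had 978 to 10897 reads per library in the 11 libraries, and a single member above the lowest value had 9 to 1185 reads. Of 396 member values 8 were at the lowest value, all of them in HFD libraries and in Pwp2, Rrp9, Utp14b and Utp23. Casp4, the gene altered in the Casp11-/- mice, stood at 2.56 to 15.2 TPM in their 6 libraries and at 5.60 to 15.6 TPM in the WT libraries. These ranges overlapped, and a value for the whole gene does not show which exons were read.

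U3 RNA was many times higher on HFD than on NCD, and the protein genes of its particle were not. The U3 genes took 29.7%, 58.5% and 41.6% of all TPM in WT-HFD (43.3% ± 14.5, SD, n = 3) and 52.9%, 32.6% and 25.8% in Casp11-/- HFD (37.1% ± 14.1, n = 3). They took 3.73%, 2.12% and 0.0309% in WT-NCD (1.96% ± 1.85, n = 3), where the last value is that of the library without reads. In Casp11-/- NCD they took 1.24%, 4.84% and 3.03% (3.04% ± 1.80, n = 3). The share was higher in all 6 HFD libraries than in any NCD library, and the diets differed by 37.7 percentage points (exact permutation test within genotypes, two-sided, 400 arrangements, p = 0.005). The same exact permutation test over the 11 libraries gave a difference of 37.2 points (200 arrangements, p = 0.005). Such shares lower the TPM of every other gene, so values of members are given below as pcTPM, the TPM of a gene for each 1000000 TPM of protein-coding genes in the same library. On that scale U3 stood at 33815 to 217163 in the 5 NCD libraries with reads (median 71595) and at 1126620 to 3737420 in the 6 HFD libraries (median 1521430). The medians differed 21.3-fold, and even the lowest HFD library was 5.19-fold above the highest NCD library. The 33 members summed to 699 to 1085 pcTPM on NCD (median 949) and to 595 to 894 pcTPM on HFD (median 668). The medians of the sums had an HFD-to-NCD ratio of 0.704, and the ranges overlapped. For each TPM of the summed members a library held 31.6 to 311 TPM of U3 on NCD (median 65.995) and 1499 to 5622 TPM on HFD (median 2168).

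**Figure D1:**
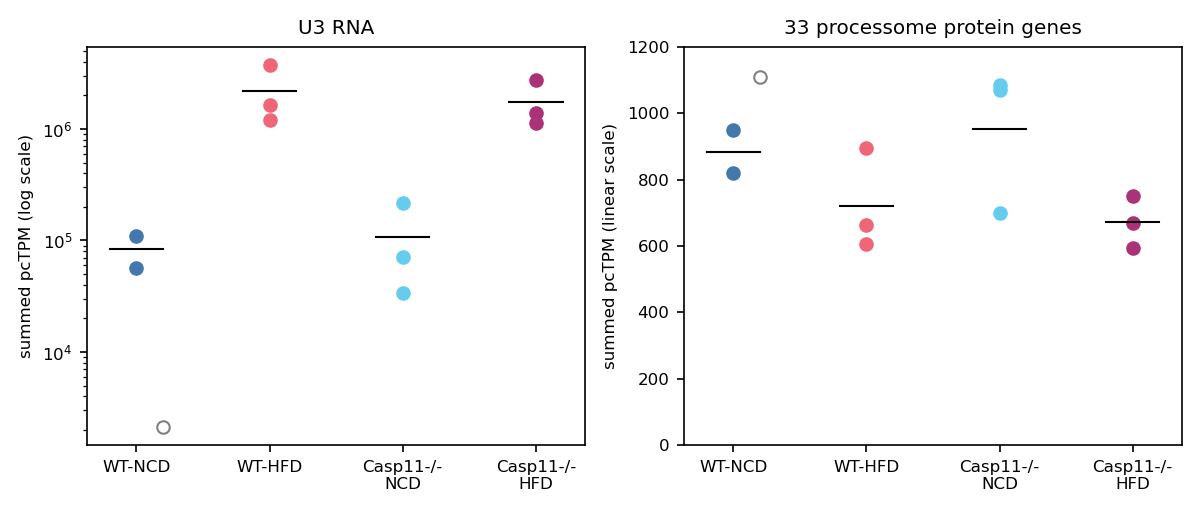
Summed level of U3 RNA (left, log axis) and of the 33 member genes (right, linear axis from 0) in pcTPM by group. Filled points are single libraries, lines are means of the libraries with reads, and the open grey point is WT-NCD replicate 3, which holds 0 reads. U3 lies at 1126620 or above in every HFD library and at 217163 or below on NCD, whereas the members lie between 595 and 1085 in the 11 libraries with reads.

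No member was called higher on HFD in any comparison, and some were called lower. With all 12 libraries none was called unless genes had to lie above the lowest value in every library. Over both genotypes with all 12 libraries, limma called 0 of the 33 members at an adjusted p under 0.05, where 0.554% of all 19498 genes tested were called. At an unadjusted p under 0.05 there were 14 members, all lower, beside 15.2% of all genes that were lower at that p. The log2 difference of HFD and NCD on log2(TPM + 1) was negative for all 33 members, with a median of -0.76 beside -0.61 for all genes. With the 11 libraries 11 members were called lower and 0 higher, where 17.3% of the 17950 genes tested were called lower and 1.07% higher. The median of the members was then -0.88 and that of all genes -0.39. Because every library is scaled to one total, the share of U3 enters these values by construction. With protein-coding genes set to a common total in the 11 libraries, 4 members, Nop56, Dhx37, Wdr3 and Nol6, were called lower (8.27% of genes), 31 of 33 were negative, and the median was -0.36 where all genes had 0.11. With voom, a limma method for counts, on the recovered reads, relative to protein-coding reads, of 29 members above the lowest value in all libraries, 5 were called lower (12.6% of 9728 genes), 27 were negative, and the median was -0.40 beside -0.14 for all genes. At an unadjusted p under 0.05 there were 11 members in that test, all lower, beside 24% of genes, and 27 of 33 by limma on TPM in the 11 libraries, beside 34.1%. The direction was lost under one scaling, in which the top 1% of genes by mean level were taken out before all 12 libraries were rescaled. The members' median was then -0.02, 17 were negative and 0 were called, and the median of all genes was 0.12. Leaving out WT-NCD replicate 3 raised the count from 0 to 11, and leaving out Casp11-/- NCD replicate 2 raised it to 6 (7.21% of genes lower). Without both libraries 30 of 33 members were called lower, beside 45.8% of all genes.

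**Figure D2:**
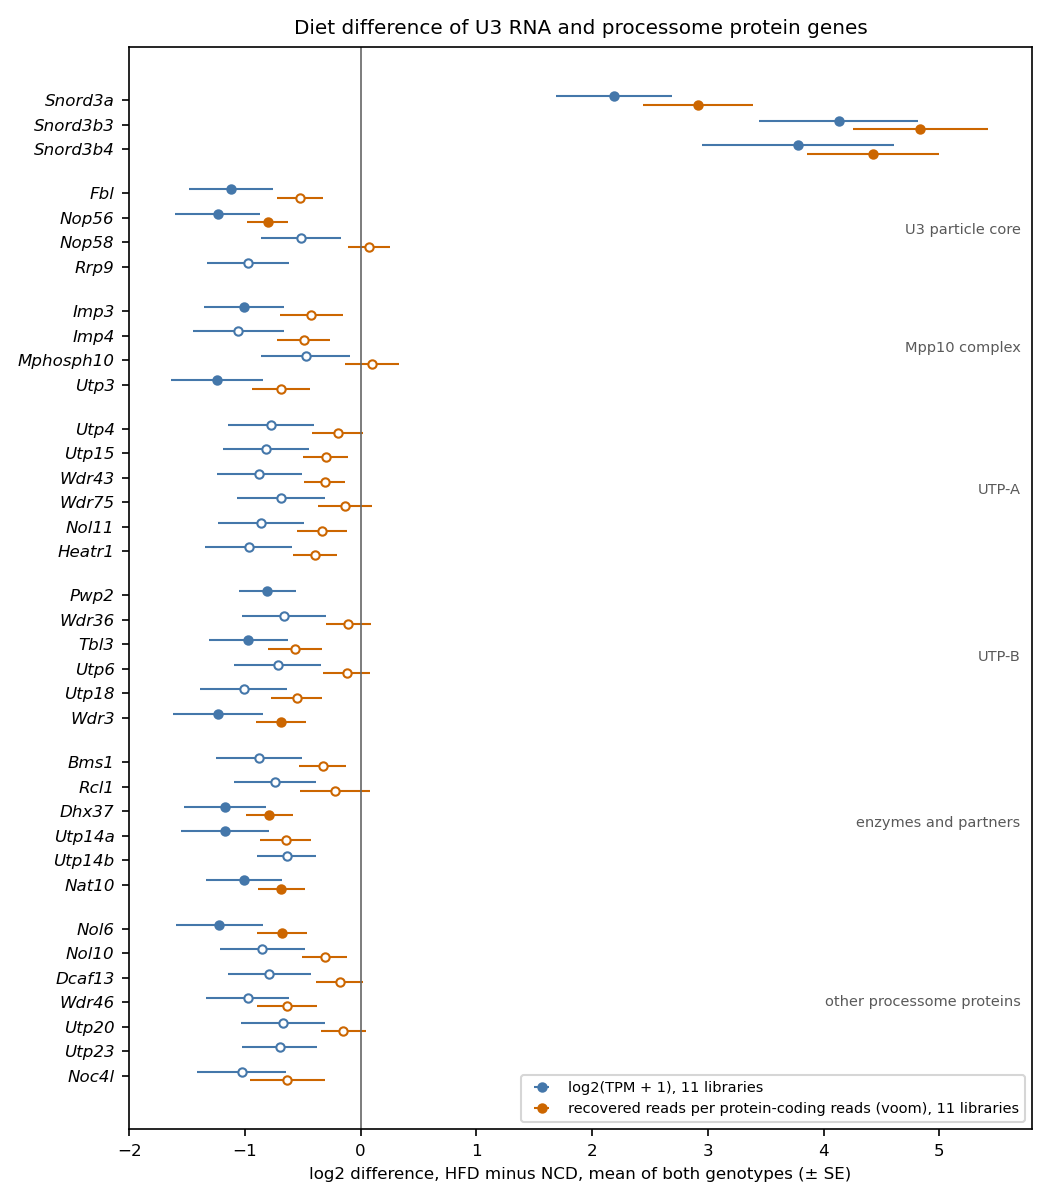
Log2 difference of HFD and NCD over both genotypes for the 3 U3 genes tested and each member, by role, in the 11 libraries. Blue points are limma on log2(TPM + 1), orange points are voom on recovered reads relative to protein-coding reads, bars are standard errors, and filled points have an adjusted p under 0.05. Blue points of all 33 members lie below 0, from -0.47 for Mphosph10 to -1.24 for Utp3, the orange points lie closer to 0, and the U3 genes lie above 0.

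Among the core proteins, Nop56 and Fbl were called lower on HFD on TPM in the 11 libraries and Nop58 was not. Of all genes 17.3% were called lower in that test. Values of WT-NCD below are those of replicates 1 and 2, since replicate 3 holds 0 reads. Nop56, which with Nop58 holds the box C/D RNA in shape, stood at 21.5 and 23.7 pcTPM in WT-NCD and at 26.8, 19.9 and 32.9 in Casp11-/- NCD. It stood at 10.96, 11.7 and 17.5 in WT-HFD and at 13.2, 12.7 and 17.2 in Casp11-/- HFD. All 6 HFD values lay below all 5 NCD values, as they did for 3.2% of genes in that direction. Its log2 difference was -1.24 (SE 0.36, adjusted p = 0.027) on TPM, -0.68 (SE 0.20, adjusted p = 0.044) on the protein-coding scale and -0.80 (SE 0.18, adjusted p = 0.012) with voom. The Nop56 values rest on 376 and 518 reads in WT-NCD and on 39 to 285 reads on HFD.

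Fbl, the methyltransferase of box C/D particles, had the highest level per length of the members, with a median of 82.2 pcTPM in the 11 libraries. It stood at 91.0 and 109 in WT-NCD, 117, 65.8 and 95.8 in Casp11-/- NCD, 57.8, 60.8 and 85.6 in WT-HFD and 82.2, 55.7 and 65.1 in Casp11-/- HFD. The diets overlapped in Casp11-/- NCD replicate 2, whose 65.8 lay inside the HFD range. Fbl was called on TPM (-1.12, SE 0.36, adjusted p = 0.037) but not on the protein-coding scale (-0.48, adjusted p = 0.10) or with voom (-0.52, adjusted p = 0.081). Nop58, the partner of Nop56 in the same particle, stood at 23.0 and 29.4 in WT-NCD and at 30.6, 32.3 and 36.5 in Casp11-/- NCD. On HFD it stood at 25.3, 29.6 and 39.2 in WT and at 39.1, 26.4 and 30.3 in Casp11-/-. These ranges overlapped almost wholly, and its log2 difference was -0.51 on TPM (SE 0.35, adjusted p = 0.26), 0.08 on the protein-coding scale and 0.07 with voom (SE 0.18). Rrp9, the U3-specific protein, stood at 16.2 and 16.8 in WT-NCD, 21.4, 18.4 and 18.2 in Casp11-/- NCD and 13.1, 16.7 and 19.4 in WT-HFD. In Casp11-/- HFD it was at the lowest value in replicate 1 and at 6.50 and 17.98 in the others. Its difference of -0.97 on TPM did not pass (adjusted p = 0.057), and in the annotation the Rrp9 gene overlaps Parp3 on the opposite strand by 987 bases. Summed over the core, NCD libraries held 136 to 196 pcTPM and HFD libraries 101 to 162.

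In the Mpp10 complex, which ties U3 to the precursor, 2 of 4 members were called lower on TPM in the 11 libraries. With voom 0 of 4 were called, where 17.3% of all genes were called lower on TPM and 12.6% with voom. The 2 members were Imp3, which helps U3 pair with its target, and Utp3. Utp3 stood at 32.1 and 31.0 pcTPM in WT-NCD, 43.8, 21.7 and 42.7 in Casp11-/- NCD, 16.4, 14.1 and 30.6 in WT-HFD and 14.2, 20.1 and 25.8 in Casp11-/- HFD. Apart from Casp11-/- NCD replicate 2, every NCD value lay above every HFD value. The log2 difference of Utp3 was -1.24 (SE 0.40, adjusted p = 0.035) on TPM and -0.69 (SE 0.25, adjusted p = 0.070) with voom. Imp3 had -1.01 (SE 0.35, adjusted p = 0.046) on TPM and -0.43 (adjusted p = 0.27) with voom, and Imp4, the related protein beside it, had -1.06 (adjusted p = 0.059) and -0.49 (adjusted p = 0.14). Mphosph10, the protein that names the complex, had -0.47 on TPM (SE 0.38, adjusted p = 0.34) and 0.10 with voom (SE 0.23), so its sign turned with the scale. It stood at 14.3 to 33.5 pcTPM on NCD and at 16.1 to 27.5 on HFD.

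None of the 6 UTP-A members was called by limma on TPM or by voom, and at an unadjusted p under 0.05 there were 5 and 0, all lower, where 34.1% and 24% of all genes were lower at that p. UTP-A joins the start of the precursor while it is still being made. Its members were Utp4, Utp15, Wdr43, Wdr75, Nol11 and Heatr1, with log2 differences of -0.69 to -0.97 on TPM (smallest adjusted p 0.067, Heatr1) and a median of -0.31 with voom. Their sum stood at 126 to 227 pcTPM on NCD and at 119 to 193 on HFD, which overlapped. UTP-B binds both the precursor and U3. Of its members 3 of 6 were called lower on TPM and 1 of 5 with voom, beside 17.3% and 12.6% of all genes. Wdr3 stood at 30.5 and 35.4 in WT-NCD, 39.8, 25.5 and 51.6 in Casp11-/- NCD, 19.9, 17.2 and 33.9 in WT-HFD and 14.9, 21.2 and 23.3 in Casp11-/- HFD. Apart from WT-HFD replicate 3 the HFD values lay below all NCD values. Wdr3 had a log2 difference of -1.23 (SE 0.39, adjusted p = 0.034) on TPM and -0.69 (SE 0.22, adjusted p = 0.042) with voom. Pwp2 (-0.81, adjusted p = 0.030) and Tbl3 (-0.97, adjusted p = 0.049) were called on TPM, whereas with voom Tbl3 was not (-0.56, adjusted p = 0.099) and Pwp2 was not tested. Pwp2 was among the lowest members, with a median of 6.44 pcTPM and values at the lowest value in 2 HFD libraries, so its difference there is limited by the depth. The other members were not called, with -1.01 for Utp18, -0.72 for Utp6 and -0.66 for Wdr36.

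The enzymes and their partners had 3 of 6 called lower on TPM and 2 of 5 with voom (17.3% and 12.6% of all genes). They were the role whose summed level did not overlap between the diets, while the sums of the other roles did. The sum stood at 97.7 to 142 pcTPM in the 5 NCD libraries and at 63.6 to 94.5 in the 6 HFD libraries. The gap is narrow, and the sum includes Utp14b, which was at the lowest value in 4 HFD libraries. Dhx37, the helicase that releases U3 from the precursor, stood at 17.97 and 19.2 in WT-NCD and at 23.0, 13.2 and 22.5 in Casp11-/- NCD. On HFD it stood at 9.68, 10.1 and 14.2 in WT and at 9.51, 8.46 and 13.4 in Casp11-/-. The diets overlapped in Casp11-/- NCD replicate 2 alone, at 13.2. Its log2 difference was -1.17 (SE 0.36, adjusted p = 0.030) on TPM, -0.64 (SE 0.21, adjusted p = 0.044) on the protein-coding scale and -0.79 (SE 0.20, adjusted p = 0.020) with voom. Nat10, which acetylates cytidines of 18S rRNA, stood at 11.9 and 12.8 in WT-NCD, 15.7, 11.2 and 21.2 in Casp11-/- NCD, 10.7, 8.12 and 7.51 in WT-HFD and 8.84, 7.004 and 10.8 in Casp11-/- HFD. The diets did not overlap, as was the case in that direction for 3.2% of genes. The log2 difference of Nat10 was -1.005 (SE 0.33, adjusted p = 0.038) on TPM and -0.68 (SE 0.20, adjusted p = 0.034) with voom. Utp14a, an activator of Dhx37, did not overlap either and had -1.17 (SE 0.38, adjusted p = 0.037) on TPM and -0.65 (adjusted p = 0.057) with voom. Its retrogene copy Utp14b lies within Acsl3 on the same strand, and whether the reads of these genes can be told apart was not tested. Utp14b was at the lowest value in 4 HFD libraries. The GTPase Bms1 (-0.88, adjusted p = 0.092) and its partner Rcl1 (-0.74, adjusted p = 0.13) were not called.

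Of the 7 other processome proteins only Nol6, the counterpart of yeast Utp22, was called. Its log2 difference was -1.22 (SE 0.38, adjusted p = 0.032) on TPM and -0.68 (SE 0.22, adjusted p = 0.046) with voom. In the same tests 17.3% and 12.6% of all genes were called lower. Nol6 stood at 37.8 and 46.1 pcTPM in WT-NCD, 57.2, 26.4 and 41.9 in Casp11-/- NCD, 24.3, 19.7 and 32.7 in WT-HFD and 22.8, 24.4 and 29.2 in Casp11-/- HFD. Casp11-/- NCD replicate 2 was again the NCD library that lay among those on HFD. The other 6 were Nol10 (-0.85), Dcaf13 (-0.79), Wdr46 (-0.98), Utp20 (-0.67), Utp23 (-0.70) and Noc4l (-1.03), with adjusted p-values from 0.057 to 0.18 on TPM. The 5 members called by voom were Nop56, Dhx37, Nat10, Wdr3 and Nol6, and all 5 were also among the 11 called on TPM. On the protein-coding scale 4 members were lower on HFD without overlap in the 11 libraries, beside 3.2% of genes. They were Nop56, Tbl3, Utp14a and Nat10, and 0 members were higher without overlap (2.72% of genes).

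**Figure D3:**
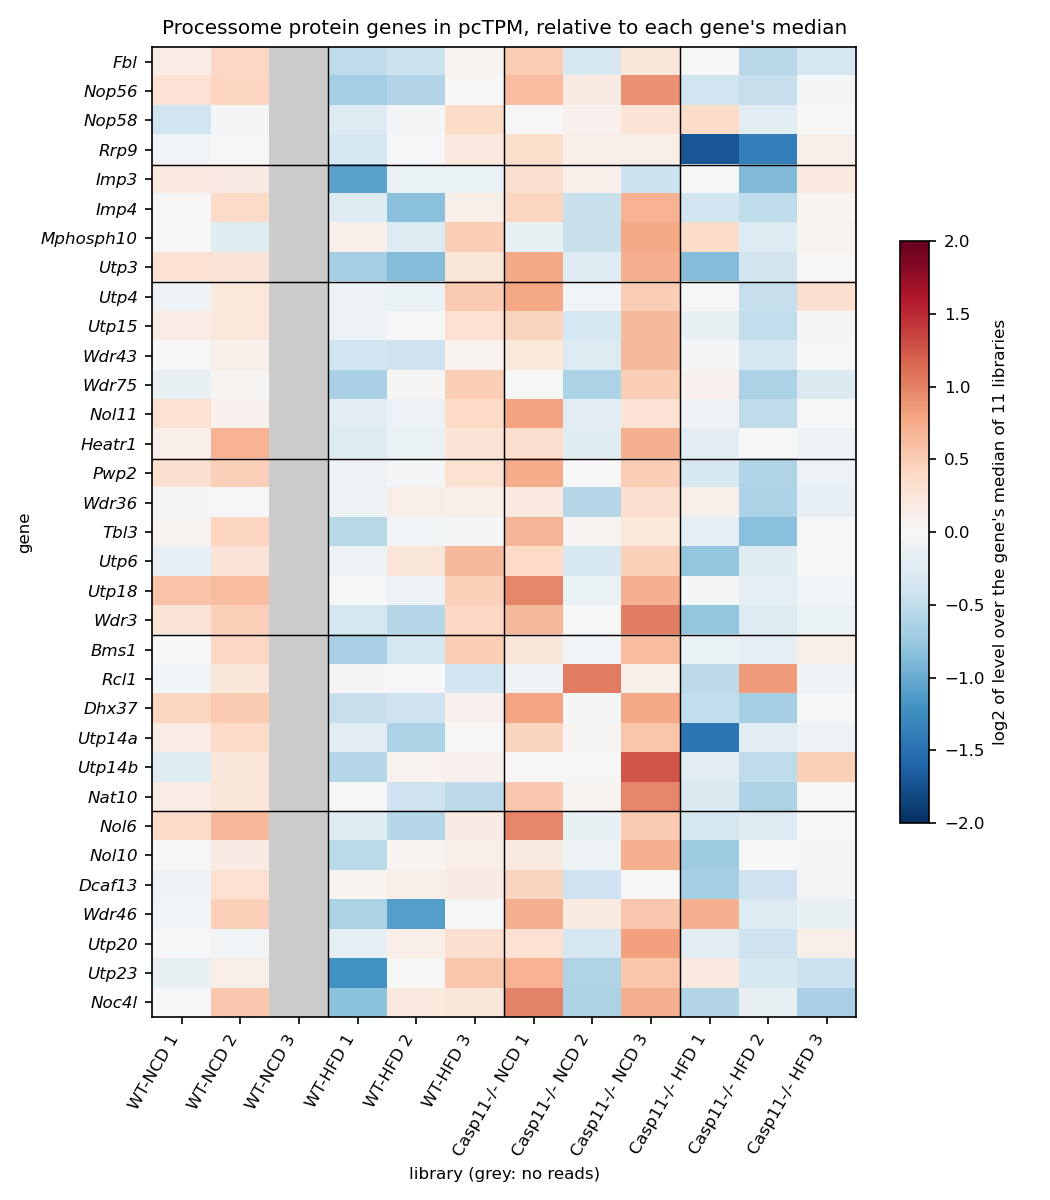
Level of each member (lines of the map, grouped by role) in each library (columns, by group), as the log2 of its pcTPM over the median of that gene in the 11 libraries with reads. Red is above and blue below that median, and the grey column is WT-NCD replicate 3, which holds 0 reads. The columns of WT-NCD replicate 2 and of Casp11-/- NCD replicates 1 and 3 are mostly red and those of most HFD libraries mostly blue or pale, while WT-HFD replicate 3 is mostly red and Casp11-/- NCD replicate 2 mostly blue or pale, and Nop58 shows little order by diet.

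The level of each member was also set against U3 in the same library, as log2(TPM + 1) minus log2 of U3 TPM. Most of the scale of a library cancels in this ratio, but the added 1 leaves the ratios of low genes dependent on it. All 33 ratios were lower on HFD, with a median log2 difference of -4.70 in the 11 libraries and -5.66 in the 12, and all 33 were called. This was the case for 99.9% of all genes in the 11 libraries, whose median was -4.21, so the lower ratio was shared by nearly every gene. Nop56 and Nop58 had ratios of -5.05 (SE 0.70) and -4.33 (SE 0.71) on the log2 scale. Within groups no positive slope on U3 was called for a member either. The slope of log2 level on log2 U3, fitted beside the 4 group means on the protein-coding scale in the 11 libraries, was called for 0 of 33 members, where 0.0279% of all genes were called. At an unadjusted p under 0.05 there were 3 members, which were Imp4, Nol6 and Utp3, all with negative slopes, beside 4.78% of all genes with negative slopes at that p. The slopes ran from -0.33 (Utp3) to 0.13 (Rcl1) with a median of -0.13, beside 0.01 for all genes, and 30 of 33 were negative. The exceptions were Rcl1, Imp3 (0.08) and Nop58 (0.04). These signs rest partly on single libraries. Without Casp11-/- NCD replicate 2, 21 of 33 slopes were negative and the median was -0.04 beside 0.10 for all genes, and with all 12 libraries 25 were negative and the median was -0.07 beside -0.16. With all 12 libraries the slope of Nol6 was 0.05. A gene that varied in proportion to U3 would have a slope of 1, and Snord3a, a part of the U3 sum, had 0.91 (SE 0.18). In the same fit Snord3a was itself not called (adjusted p = 0.22), nor were Snord3b3 and Snord3b4 (adjusted p = 0.27 for each). The count of 0 called members therefore cannot show whether members followed U3, since the U3 genes were not called either. The slopes can be compared with 1, and the highest of a member was 0.13 (SE 0.17, Rcl1). Fbl had -0.15 (SE 0.13), Nop56 -0.13 (SE 0.13), Nop58 0.04 (SE 0.13) and Rrp9 -0.13 (SE 0.16). With 2 or 3 libraries in a group these slopes rest on few points, and with all 12 libraries 1 member, Rrp9, was called (-0.27, adjusted p = 0.037), beside 43.4% of all genes.

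**Figure D4:**
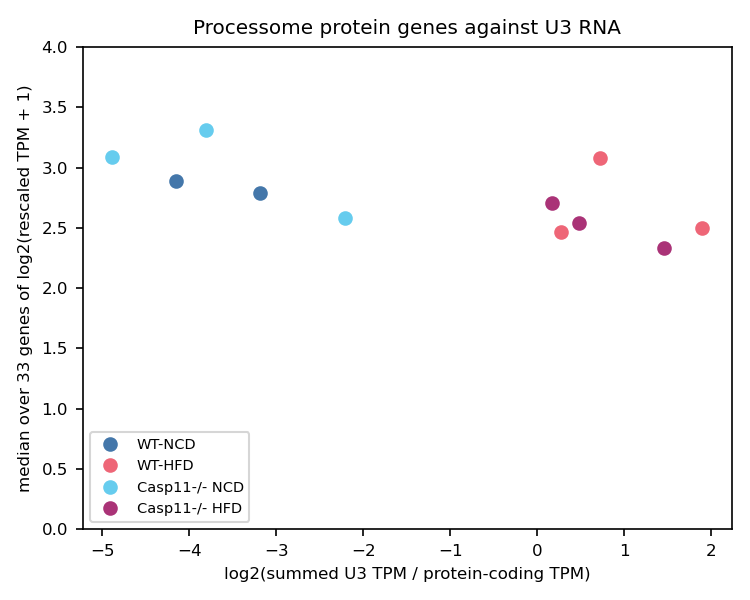
Median level of the members against U3 RNA in the 11 libraries with reads, on log2 axes, both relative to the protein-coding total, with the members' values as log2(rescaled TPM + 1) and points coloured by group. U3 spans from -4.89 in Casp11-/- NCD replicate 1 to 1.90 in WT-HFD replicate 2, while the members' median lies between 2.33 and 3.31.

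Within each genotype alone no member was called with 12 or with 11 libraries by limma on the group means alone, or with 11 by voom. In WT mice the median log2 difference of HFD and NCD was -0.64 with 12 libraries and -0.92 with 11. No member was called in WT mice, where 0.113% and 2.18% of all genes were called by limma and 2.62% by voom. At an unadjusted p under 0.05 there were 2 and 7 members, and 3 with voom, all lower, where 6.27%, 14.3% and 11.2% of all genes were lower at that p. With protein-coding genes set to a common total in the 11 libraries the median in WT mice was -0.27 beside 0.29 for all genes, and 7 of 33 members were positive. With voom it was -0.42 beside -0.03, and 6 of 29 were positive. In Casp11-/- mice the median was -0.92, and 0 members were called by limma with either set of libraries or by voom, beside 0%, 1.1% and 5.56% of genes. There, 9 and 12 members had an unadjusted p under 0.05, and 5 with voom, all lower, where 7.34%, 24.3% and 19.1% of all genes were lower at that p. On the protein-coding scale the median in Casp11-/- mice was -0.42 beside -0.05 for all genes, and with voom it was -0.45 beside -0.25, with 0 members positive in either. Without WT-NCD replicate 3 and Casp11-/- NCD replicate 2, 29 members were called in Casp11-/- mice, where 46.1% of all genes were called lower. No difference between genotypes was called for these genes on either diet. For Casp11-/- against WT, 0 members were called on NCD (median 0.30 with 12 libraries and 0.01 with 11) and 0 on HFD (median -0.07). In these comparisons 0 members had an unadjusted p under 0.05 by limma or by voom. The interaction of diet and genotype was likewise called for 0 members, and 0 had an unadjusted p under 0.05. Its median was -0.38 with 12 libraries and -0.11 with 11. With 12 libraries 0% of all genes were called for genotype on NCD, for genotype on HFD and for the interaction. These counts of 0 are therefore not particular to the members.

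Some other genes of ribosome production were also called lower on HFD, in numbers that differed between lists. The counts stand beside 17.3% of all genes called lower on TPM in the 11 libraries and 12.6% with voom. Among 10 genes for the assembly of box C/D particles, 2 were called lower on TPM in the 11 libraries and 0 of 7 with voom. They were Ruvbl1 (-1.08, adjusted p = 0.038), an ATPase of the assembly machinery, and its partner Ruvbl2 (-1.16, adjusted p = 0.042), named after its value was seen, while the core protein gene Snu13 had -0.96 (adjusted p = 0.064) and -0.32 with voom (adjusted p = 0.24). Of 24 other factors of the small subunit 8 were called on TPM and 3 of 20 with voom, and of 24 factors of the large subunit 9 and 6 of 21. The 3 called by voom were Ddx49, Pdcd11 and Riok1, named after their values were seen. Ddx49, a helicase, had -1.24 (adjusted p = 0.027) and -0.82 with voom (adjusted p = 0.017), and Ppan, a factor of the large subunit, had -1.31 (adjusted p = 0.026) and -0.82 (adjusted p = 0.033). For RNA polymerase I and its factors, which make the precursor, the counts were 5 of 14 and 5 of 11. In each case they were Taf1d, Ubtf, Polr1a, Polr1d and Polr1b, of which all but Polr1b were named after their values were seen. Polr1b had -0.99 (adjusted p = 0.041) and -0.61 with voom (adjusted p = 0.036). The H/ACA particle, the sister class that guides pseudouridylation, had 0 called of 4 in both tests and 0 at an unadjusted p under 0.05. Of 4 nucleolar chaperones only Tcof1 was called, with -1.64 (adjusted p = 0.012) and -1.07 with voom (adjusted p = 0.016). None of these genes was called higher, and with 12 libraries 0 were called in every list. At an unadjusted p under 0.05 limma with 12 libraries had 4 of 10 assembly genes, 11 of 24 other small-subunit factors, 13 of 24 large-subunit factors, 5 of 14 of RNA polymerase I, 2 of 4 of H/ACA and 0 of 4 chaperones, beside 15.2% of all genes that were lower at that p. The medians of the lists on TPM in the 11 libraries ran from -0.61 to -0.95, with the members at -0.88.

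Markers of cell types also differed between the diets. On TPM in the 11 libraries 1.07% of all genes were called higher and 17.3% lower, and the share of U3 enters TPM by construction. In the 11 libraries 9 of 11 Kupffer cell markers were called higher on HFD, and their sum stood at 1488 to 3827 pcTPM on HFD and at 295 to 894 on NCD. All 7 B cell markers and 7 of 10 T and NK cell markers were called lower, as were 5 of 5 erythroid markers tested, and 5 of 7 sinusoidal endothelial markers were higher. Of 7 cycling cell markers tested 2 were lower, with a sum of 86.1 to 174 pcTPM on HFD, 118 to 166 in Casp11-/- NCD and 160 to 172 in WT-NCD replicates 1 and 2. Cenpf was at the lowest value in all HFD libraries and also in WT-NCD replicates 1 and 2. Hepatocyte markers, foreign to an immune cell fraction, summed to 47202 to 101647 pcTPM on HFD, to 19964 to 105662 in Casp11-/- NCD and to 50483 to 85124 in WT-NCD replicates 1 and 2, and 0 of 10 were called. Of 7 neutrophil markers 0 were called, with a sum of 552 to 17757 in Casp11-/- HFD, 1121 to 1809 in Casp11-/- NCD, 1169 to 1630 in WT-HFD and 2346 to 2598 in WT-NCD replicates 1 and 2. Neither of these lists had a marker at an unadjusted p under 0.05 by limma in the 11 libraries, and with voom 3 of 10 hepatocyte markers did and 0 of 5 neutrophil markers. With all 12 libraries 6 of 11 Kupffer cell markers were called higher by limma and 0 of every other marker list, where at an unadjusted p under 0.05 there were 2 of 7 B cell, 3 of 10 T and NK cell, 3 of 5 erythroid, 6 of 7 sinusoidal endothelial, 3 of 7 cycling cell and 0 of the hepatocyte and neutrophil markers. Of all genes 0.554% were called with 12 libraries, and 15.2% were lower at an unadjusted p under 0.05. In these bulk samples fewer cells of a type and less RNA per cell cannot be told apart. The part of the cell makeup in the members' values was not tested.

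The members have no common place in the genome. They lie on 18 chromosomes, and 6 overlap another protein-coding gene, of which Utp14b does so on the same strand. On the opposite strand Wdr3 overlaps Spag17 by 5143 bases and Gdap2 by 27, and Tbl3 overlaps Noxo1 by 2581. Rrp9 overlaps Parp3 by 987 bases, Heatr1 overlaps Lgals8 by 875 and Nop56 overlaps Idh3b by 5. In 5 of the members 14 small RNA genes lie on the same strand, and 12 of these are snoRNAs. Nop56 holds Snord110 and Snord57, Nop58 holds Snord70 and Snord11, and Wdr43 holds Snord92 and Snord53. The 8 hosted snoRNAs listed in the files had 0 recovered reads in the 11 libraries, and their listed values of up to 3.71 TPM were those that 0 reads give.

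Promoters are shown because members that move together may share letters there. RefSeq windows of GRCm38.p6, from 250 bases before to 50 bases after the start, were found for 26 of the 33 members. The E-box CACGTG, which reads alike on both strands, was in 8 of them (30.8%), in 7.15% of 32851 windows of all genes and in 11.1% of the promoters of genes tested. CCGGAAG, the letters of ETS sites, stood on either strand in 11 (42.3%), in 8.86% of all windows and in 17.9% of those of genes tested. The E-box is given in capitals with its surroundings, on the strand of the gene.
Imp4, chr1:34439696-34439725, plus strand: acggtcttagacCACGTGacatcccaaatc
Nol11, chr11:107189407-107189436, minus strand: cttgagcgttcgCACGTGgtctagactcca
Utp18, chr11:93885769-93885798, minus strand: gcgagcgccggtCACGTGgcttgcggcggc
Wdr46, chr17:33940699-33940728, plus strand: aagggagtttcgCACGTGgatcgttgttcg
Utp4, chr8:106893643-106893672, plus strand: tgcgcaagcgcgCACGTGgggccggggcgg
Wdr43, chr17:71616220-71616249, plus strand: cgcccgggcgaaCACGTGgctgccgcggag
The remaining matches were in Utp14b and Utp20. None of these 8 genes was among the 11 members called on TPM, of which Nol6, Fbl and Tbl3 had no window. A match of letters says nothing about a factor at the site.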

How the data were processed

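Total RNA libraries of 12 mice were made with random primers and strand orientation kept. The authors aligned single-end reads to mm10 (GRCm38.p6 in the submitters' processing notes) by means of STAR, whose version is not given in the sources used here. They obtained TPM from Qlucore Omics Explorer. The deposited values are TPM in which low values were raised to a lowest value of 1.01, so they are treated as a score and not as counts. In each file 6 entries without a gene name were left out.

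Genes above the lowest value in at least 3 libraries (19498) were tested on log2(TPM + 1) by limma 3.58.1 (R 4.3.3), letting the spread follow mean level and sharing it over the 4 groups, with two-sided p-values and Benjamini-Hochberg adjustment over all genes tested. Fold changes on this scale understate those of low genes. With the 11 libraries 17950 genes were tested. Reads were recovered from the steps of the values by taking gene lengths from WT-NCD replicate 3 as a library without reads. Voom was run on the recovered reads. The recovered lengths were within 20% of the exonic length in GENCODE vM21 for 12 of 33 members, so levels between genes rest on the authors' lengths. U3 shares were compared by exact permutation. On simulated data with 12 libraries, 39% of genes changed by 2 on the log2 scale were recovered for diet over both genotypes among 19498 genes, and 81% with 11 libraries, while 1 and 9 of 19298 unchanged genes were called. Other steps used Python 3.11.15, SciPy 1.17.1, numpy 2.4.6 and pandas 2.3.3, and matplotlib 3.10.9 drew the plots.

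The members, lists and tests were chosen with earlier results of these data known. All 33 members are named. Of the other lists, genes of smallest p for diet over both genotypes and Snu13 are named, and further genes are marked as named after their values were seen. P-values measure the spread between mice labelled as separate samples. The alternatives were other scalings, filters and pseudocounts, a replicate block, a spread from the groups compared and each library left out.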

Additional observations from a re-analysis of the deposited data

How the results depend on the processing

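The count of members called for diet over both genotypes moved most. It was 0 with 12 libraries and 0 to 11 when each library was left out in turn, with 11 without WT-NCD replicate 3 and 6 without Casp11-/- NCD replicate 2. It was 4 with protein-coding genes set to a common total without WT-NCD replicate 3, and 1 of 29 among genes above the lowest value in every library. Among settings chosen after seeing the data, it was 2 of 29 with both of these choices and without WT-NCD replicate 3, 5 of 29 with voom on recovered reads, and 30 without WT-NCD replicate 3 and Casp11-/- NCD replicate 2. The latter gave 29 for diet in Casp11-/- mice. The slope on U3 was called for 1 member with all 12 libraries. In 177 other recomputations counts stayed within 1.5 times the reported count and the U3 share kept its direction and its side of the threshold. Apart from the ratio to U3, where nearly all genes were called, these counts were 0 in both cases, so they say little about stability. The causes of the changed counts were not tested. WT-NCD replicate 3 was treated as holding 0 reads.

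Replicate numbers were not taken to pair the mice. In the 11 libraries with reads, deviations of same-numbered samples correlated at -0.33 to 0.47 and those of differently numbered samples at -0.58 to 0.47, and not every sample correlated best with its own number. With the replicate block 0 members were called with 12 libraries. With the block and without WT-NCD replicate 3, a combination chosen after seeing the data, 28 in place of 11 were called for diet over both genotypes (35.6% of genes lower) and 1 for diet in Casp11-/- mice (5.97%).

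Signs turned for single genes. With the top 1% of genes removed, the diet difference was 0.088 for Fbl, 0.42 for Nop58, 0.086 for Nhp2, 0.022 for Gar1, 0.023 for Nolc1 and 0.30 for Snu13. For Nop58 it was 0.081 with protein-coding genes set to a common total in the 11 libraries, with and without the stricter filter, and 0.070 with voom. The slope on U3 turned with all 12 libraries for Fbl (0.046), Nop56 (0.032), Nop58 (-0.077), Imp3 (-0.093), Nol6 (0.052), Heatr1 (0.14), Bms1 (0.025), Wdr43 (0.023), Utp20 (0.021), Wdr36 (0.012) and Rcl1 (-0.022), and on deposited TPM for Nop58 (-0.21) and Imp3 (-0.28). Without Casp11-/- NCD replicate 2, 12 slopes were positive in place of 3. When each library was left out, the slopes ran from -0.012 to 0.093 for Nop58, from -0.014 to 0.27 for Imp3 and from -0.14 to 0.013 for Tbl3. The U3 share differed by 33.7 to 41.1 percentage points over the same omissions.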
